A study of Homo sapiens with 12 samples.

Results

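The CHD family of chromatin remodellers was followed across RNA sequencing of tumour cell spheroids. Its members, CHD1 to CHD9, were chosen by gene symbol, which gave 9 of the 26485 genes counted. All 9 passed the filter on low counts and were among the 14732 genes tested. The cells belonged to 3 derivatives of DU145, a human cell line established from a prostate carcinoma. In all 3 lines ITGA2, the gene of the α2 integrin subunit of a collagen receptor, had been targeted with Crispr/Cas9. DU145KO was the targeted line itself, DU145KO+α2 carried in addition a stably transfected α2 integrin cDNA in the pAWneo2 plasmid, and DU145KO+vector carried the empty plasmid. Each line gave 4 samples that the study calls independent biological replicates, 12 in all. Spheroids were started with 8000 cells each and collected after 72 hours. The study reports that DNA rose faster in spheroids of DU145KO+vector than in those of DU145KO+α2. Only the transfected lines were kept in geneticin. Whether the lines were single clones is not given in the sources used here, so properties of a line that are unrelated to its plasmid cannot be told apart from the effect of the plasmid. DU145 cells with intact ITGA2 were not analysed here.

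CHD proteins are helicase-like ATPases that use the energy of ATP to slide, space or evict nucleosomes, and a pair of chromodomains near the amino terminus gives the family its name. Subfamily I holds CHD1 and CHD2, which act at transcribed genes. Subfamily II holds CHD3, CHD4 and CHD5, which carry PHD fingers and serve as the motor of the nucleosome remodelling and deacetylase complex, NuRD. Subfamily III holds CHD6 to CHD9, large proteins with BRK domains. CHD1 is deleted in a subset of prostate cancers. CHD5, found mainly in brain and testis, is known as a tumour suppressor of the short arm of chromosome 1. The study compared the lines to find genes whose expression goes with α2 integrin, and CHD5 was among those it picked from these samples. The tests of CHD5 below are therefore not independent evidence for that choice. The study also measured the picked genes by real time PCR in DU145KO+α2 and DU145KO+vector spheroids and reported that the differences held there. It further measured them in cells plated on collagen I or fibronectin, also comparing DU145 cells with intact ITGA2 with DU145KO. Those measurements were not analysed here.

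The total count of a sample ran from 13948734 to 19988111. At this depth 3 counts, taken here as the limit of detection for counting error alone, correspond to 0.150 to 0.215 CPM, the count scaled to a common library size. ITGA2 checked the labels. It measured 300.5, 328, 332 and 259 CPM in DU145KO+α2, against 13.0 to 20.2 CPM in DU145KO+vector and 15.7 to 25.8 CPM in DU145KO. The epithelial markers KRT8, KRT18, KRT19, EPCAM and CDH1 were detected in every sample, with a summed level of 1210 to 1583 CPM in DU145KO, 859 to 1153 CPM in DU145KO+α2 and 1141 to 1386 CPM in DU145KO+vector. The keratins made up most of that sum. EPCAM lay at 140 to 186 CPM in DU145KO, 57.3 to 88.3 in DU145KO+α2 and 82.2 to 93.6 in DU145KO+vector, and CDH1 at 118 to 161, 46.8 to 74.7 and 83.3 to 116 CPM, so both were highest in DU145KO with no overlap. Their part in the differences of the CHD genes was not tested.

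Levels were compared between members in the deposited RPKM values, which divide CPM by the length of the gene in kilobases. CHD4, the usual ATPase of NuRD, was the most abundant member in every line, with 35.4 ± 3.28 RPKM in DU145KO, then 35.0 ± 3.83 in DU145KO+α2 and last 34.7 ± 2.49 in DU145KO+vector (mean ± SD, n = 4). In DU145KO it was followed by CHD2 at 28.1 ± 3.91, CHD8 at 25.8 ± 1.80 and CHD3 at 18.9 ± 1.57 RPKM. CHD1 at 14.4 ± 1.30, CHD6 at 9.42 ± 0.596, CHD9 at 5.51 ± 0.812 and CHD7 at 4.09 ± 0.554 RPKM came next. CHD5 was the least abundant in every line, at 0.464 ± 0.0231 RPKM in DU145KO and 0.654 ± 0.108 in DU145KO+vector, and at 0.0638 ± 0.0142 in DU145KO+α2.

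The order was the same in DU145KO+α2 as in DU145KO, and in DU145KO+vector it differed in that CHD8 at 27.1 ± 1.85 RPKM stood before CHD2 at 26.3 ± 2.60. Most neighbours in the order were separated by more than the spread of their replicates. The ranges of CHD4 and CHD2 overlapped in DU145KO and in DU145KO+α2, those of CHD2 and CHD8 overlapped in all 3 lines, and those of CHD3 and CHD1 overlapped in DU145KO+α2. When CPM was divided by the longest coding length instead, CHD2 came before CHD4 in every line, and CHD5 remained last. For CHD4, 46.9% of its exon bases are shared on the same strand with a second protein-coding gene model of GENCODE v44 and 10.2% with a noncoding RNA on the opposite strand. The annotation release that the authors counted on is not given in the sources used here. If it held those models, the counting could have lost or shared reads of CHD4, so its level is uncertain. The members share no stretch of 50 bases, the length of the reads, with each other.

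**Figure D1:**
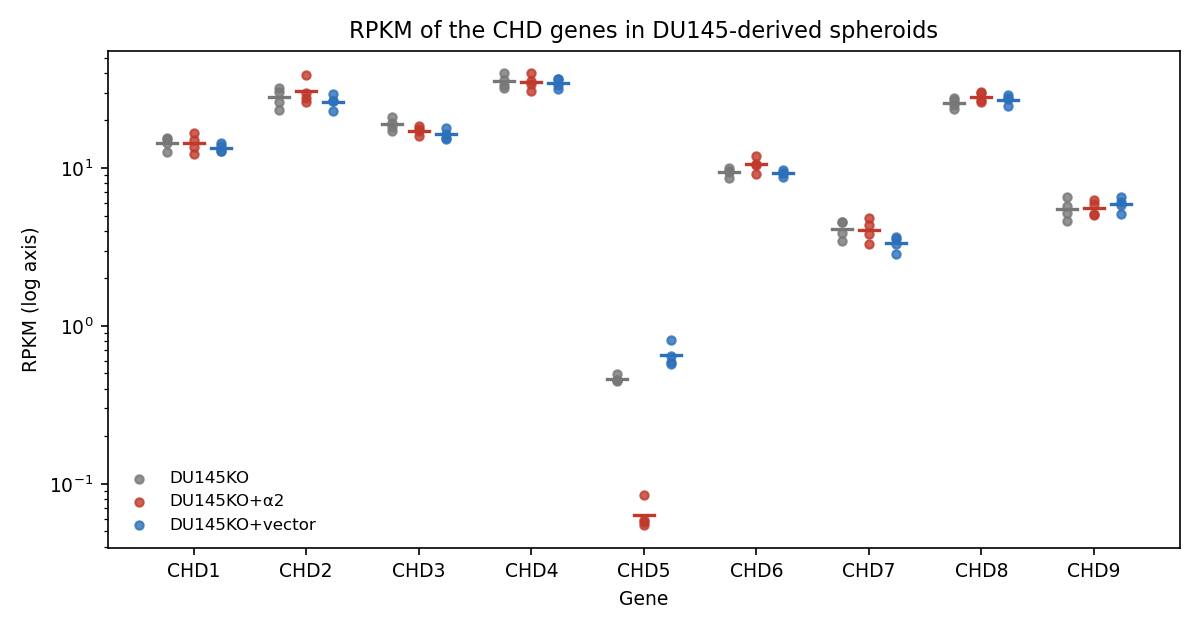
RPKM of CHD1 to CHD9 on a logarithmic axis, with 1 point per sample, 3 lines and a bar at the mean of 4 samples. CHD5 lies below all other members in each line, and its DU145KO+α2 samples, at 0.0546 to 0.0849 RPKM, lie below its other samples.

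CHD5 was the member that separated the lines. It lies on the minus strand of chromosome 1 at chr1:6101787-6180321 in GRCh38. CHD5 measured 4.36, 4.46, 4.42 and 4.86 CPM in DU145KO, from 66 to 83 counts. In DU145KO+vector it measured 5.65, 5.53, 7.88 and 6.26 CPM, from 77 to 137 counts. In DU145KO+α2 it measured 0.559, 0.549, 0.531 and 0.827 CPM, from 9 to 13 counts. All 4 samples of DU145KO+α2 were thus low and all 4 of DU145KO+vector were high, with DU145KO between them and no overlap between any of the lines. The DU145KO+α2 values stayed above the limit of detection, so reads assigned to CHD5 were still detected there. CHD5 shares 2.12% of its exon bases on the same strand with a second protein-coding gene model of GENCODE v44. Whether any of the 9 to 13 counts came from that model was not tested. In bulk RNA, fewer cells with the transcript and less transcript per cell cannot be told apart.

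In DU145KO+α2 against DU145KO+vector, CHD5 fell by 3.36 on the log2 scale (SE 0.20, 95% interval −3.78 to −2.94), a 10.2-fold difference, with an adjusted p of 5.28e-08 in edgeR's quasi-likelihood test, rank 4 of all genes by p. Against DU145KO it fell by 2.87 (SE 0.20, 95% interval −3.30 to −2.44), a 7.32-fold difference, with an edgeR adjusted p of 6.57e-07. The DU145KO+α2 samples are the same in both comparisons. Between the α2 negative lines, CHD5 was 1.40-fold higher in DU145KO+vector than in DU145KO, a log2 fold change of 0.48 (SE 0.16, 95% interval 0.16 to 0.81). That difference had an edgeR adjusted p of 0.127. With the replicate number as a block it had an edgeR adjusted p of 0.0275, at a log2 fold change of 0.48.

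**Figure D2:**
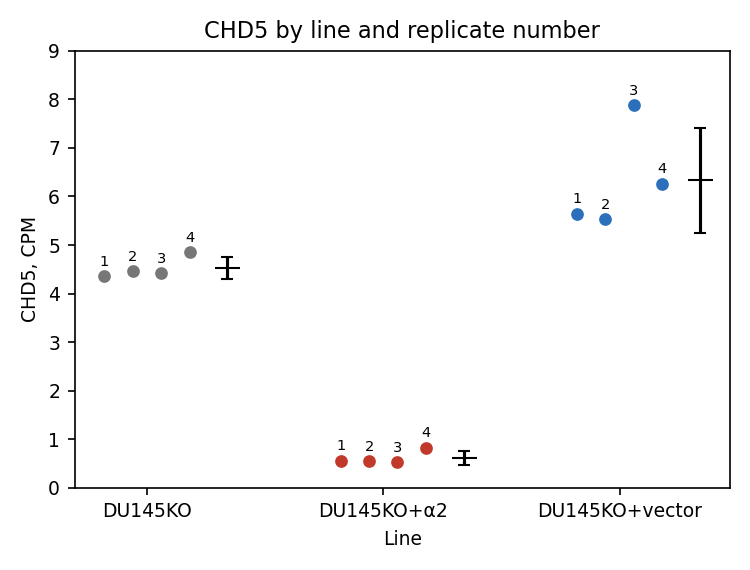
CHD5 in CPM for each sample of the 3 lines, with the replicate number above each point and the mean ± SD of 4 samples beside them. The DU145KO+α2 samples lie between 0.531 and 0.827 CPM, the DU145KO samples between 4.36 and 4.86 and the DU145KO+vector samples between 5.53 and 7.88.

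How many of the family members passed the test, with an adjusted p below 0.05, was read against all genes tested. In DU145KO+α2 against DU145KO+vector 1 of 9 members passed, CHD5, against 11.9% of all genes, with 878 higher and 876 lower. Against DU145KO the number in DU145KO+α2 was again 1 of 9, CHD5, against 8.17% of all genes, 455 higher and 748 lower. In DU145KO+vector against DU145KO none of the 9 passed in edgeR, against 2.34% of all genes, although 3 members, CHD3, CHD5 and CHD7, had an unadjusted p below 0.05, and the DESeq2 Wald test and voom with limma also called 0. The family as a whole was therefore called about as often as other genes in the first pair of comparisons. With the further demand of a fold change above 2, which the study used to define DE genes, CHD5 was still called in both comparisons of DU145KO+α2, where 2.21% and 2.1% of all genes were called, and no member was called in the third, where 0.835% were.

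Counting members whose samples did not overlap between the lines gave CHD5 alone in each comparison, lower in DU145KO+α2 in both and higher in DU145KO+vector than in DU145KO. Among all genes the groups did not overlap for 17.2%, 12.9% and 8.76%. The median log2 fold change of the 9 members was 0.08 in DU145KO+α2 against DU145KO+vector and −0.02 against DU145KO, and −0.04 in DU145KO+vector against DU145KO. The same over all genes was −0.01, −0.00 and −0.00. Without CHD5, the 8 paralogs lay between −0.08 and 0.29, between −0.14 and 0.15, and between −0.31 and 0.08.

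Same-numbered replicates of different lines deviated together across genes, so each comparison was also made within replicate numbers. With this block the share of genes called was 26.5% in DU145KO+α2 against DU145KO+vector and 22.3% against DU145KO, and 13.4% in DU145KO+vector against DU145KO. The number of members called rose to 4 of 9 in the first, CHD2, CHD6 and CHD7 higher and CHD5 lower. It remained 1 of 9, CHD5, in the second, and it was 3 of 9 in the third, CHD5 higher and CHD3 and CHD7 lower. The fold changes were nearly the same under the block, whereas their intervals became narrower for the paralogs, as the plot of log2 fold changes shows. No paralog differed by more than 1.24-fold in any comparison without the block.

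**Figure D3:**
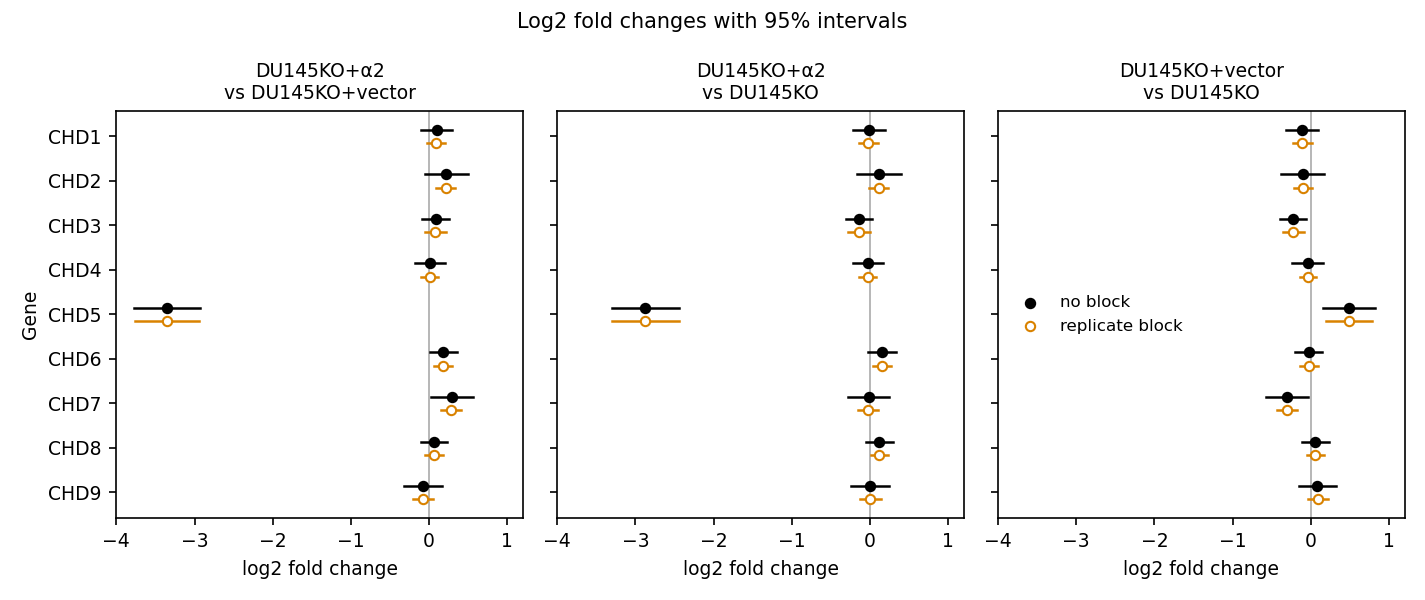
Log2 fold changes of CHD1 to CHD9 with 95% intervals in the 3 comparisons, without (filled, black) and with (open, orange) the replicate number as a block. CHD5 at −3.36 and −2.87 stands far to the left in both comparisons of DU145KO+α2, and the paralogs lie between −0.31 and 0.29 without the block.

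Of subfamily I, CHD1, whose chromodomains bind methylated lysine 4 of histone H3, lies on the minus strand at chr5:98853985-98929007. It ranged from 79.5 to 107 CPM over the 12 samples, with overlapping lines. Its log2 fold change was 0.09 (95% interval −0.11 to 0.30) in DU145KO+α2 against DU145KO+vector, −0.02 against DU145KO and −0.11 in DU145KO+vector against DU145KO, with edgeR adjusted p of 0.609, 0.952 and 0.661.

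CHD2, linked to deposition of histone H3.3 and to childhood epilepsy, lies on the plus strand at chr15:92886203-93027996. It measured 223, 291, 312 and 253 CPM in DU145KO, 218, 251, 282 and 253 in DU145KO+vector and 247, 284, 373 and 266 in DU145KO+α2. The lines overlapped, and within each line replicate 1 was the lowest and replicate 3 the highest. CHD2 was 0.22 higher on the log2 scale in DU145KO+α2 than in DU145KO+vector (SE 0.13, 95% interval −0.06 to 0.50), with an edgeR adjusted p of 0.325 without and 0.00851 with the block. Each DU145KO+α2 sample exceeded the DU145KO+vector sample of the same number. Against DU145KO the log2 fold change was 0.12, and DU145KO+vector differed from DU145KO by −0.10, with edgeR adjusted p of 0.684 and 0.780.

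LINC01578 is the noncoding RNA now called CHASERR, known to restrain CHD2, and starts just upstream of it on the same strand. It was looked at after its values had been seen, and 121 bases of its exons are shared with CHD2. LINC01578 measured 87.4, 63.9, 84.8 and 92.7 CPM in DU145KO+α2 and 73.4, 61.8, 61.1 and 72.5 CPM in DU145KO+vector. Those lines overlapped, with 3 of the DU145KO+α2 samples above all DU145KO+vector samples. The log2 fold change was 0.29 (SE 0.10), with an edgeR adjusted p of 0.0874 without and 0.00561 with the block. Against DU145KO it was 0.18, with an edgeR adjusted p of 0.349 without and 0.0940 with the block, and DU145KO+vector differed from DU145KO by −0.11, with 0.702 and 0.326 in edgeR.

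In subfamily II, CHD3, the other common ATPase of NuRD, lies on the plus strand at chr17:7884796-7912760. It measured 138, 161, 149 and 132 CPM in DU145KO, 124, 118, 118 and 137 in DU145KO+vector and 120, 133, 140 and 132 in DU145KO+α2. DU145KO was the highest line on average, and all lines overlapped. CHD3 was lower by 0.22 on the log2 scale in DU145KO+vector than in DU145KO (SE 0.08, 95% interval −0.39 to −0.06), with an edgeR adjusted p of 0.171 without and 0.0314 with the block. In DU145KO+α2 it was lower than in DU145KO by 0.14 (95% interval −0.31 to 0.02), with an edgeR adjusted p of 0.321. Its direction in DU145KO+vector against DU145KO was opposite to that of CHD5.

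CHD4 lies on the minus strand at chr12:6570082-6614524 and ranged from 197 to 263 CPM. Its log2 fold changes were 0.01, −0.03 and −0.04 in DU145KO+α2 against DU145KO+vector, against DU145KO, and in DU145KO+vector against DU145KO, the order kept for triplets of values from here on. The 95% intervals reached from −0.24 to 0.21 at the widest, and edgeR gave adjusted p of 0.957, 0.909 and 0.891. The sum of the RPKM of CHD3, CHD4 and CHD5 was 50.7 to 61.0 in DU145KO, 48.8 to 55.4 in DU145KO+vector and 46.6 to 57.4 in DU145KO+α2. CHD5 contributed 0.747% to 0.929% of that sum in DU145KO, 1.08% to 1.64% in DU145KO+vector and 0.0993% to 0.166% in DU145KO+α2. The ratio of CHD4 to CHD5 in RPKM was thus 71.0 to 87.1, 41.2 to 64.2 and 400.2 to 698. The transcripts of the NuRD motors were nearly all CHD3 and CHD4 in each line, whatever the level of CHD5.

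CHD6 lies on the minus strand at chr20:41402083-41618384. It measured 98.4, 115, 130 and 115 CPM in DU145KO+α2, 94.8, 101, 102 and 106 in DU145KO+vector and 93.2, 110, 105 and 103 in DU145KO. Every DU145KO+α2 sample exceeded the same-numbered samples of the other lines, and the lines overlapped. CHD6 was 0.18 higher on the log2 scale than in DU145KO+vector (SE 0.08, 95% interval 0.01 to 0.36), with an edgeR adjusted p of 0.179 without and 0.0207 with the block. Against DU145KO the log2 fold change was 0.15, with an edgeR adjusted p of 0.308 without and 0.0556 with the block.

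CHD7, on chromosome 8, is the gene mutated in CHARGE syndrome and is needed for neural crest development. It measured 33.0, 42.1, 41.2 and 38.5 CPM in DU145KO+vector, 37.7, 50.4, 56.4 and 44.3 in DU145KO+α2 and 39.7, 53.5, 53.4 and 44.9 in DU145KO. DU145KO+vector was the lowest line for every replicate number, although the lines overlapped. CHD7 was 0.29 higher on the log2 scale in DU145KO+α2 than in DU145KO+vector (SE 0.13, 95% interval 0.02 to 0.56), with an edgeR adjusted p of 0.165 without and 0.00158 with the block. DU145KO+vector was lower than DU145KO by 0.31 (SE 0.13, 95% interval −0.58 to −0.04), with an edgeR adjusted p of 0.254 without and 0.00229 with the block. DU145KO+α2 and DU145KO differed by −0.02 (95% interval −0.29 to 0.25), with an edgeR adjusted p of 0.957. With the block, CHD7 thus differed between DU145KO+vector and both other lines, whereas CHD5 differed in all 3 comparisons.

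CHD8, which binds β-catenin and is mutated in autism, lies on the minus strand at chr14:21385194-21456126 and ranged from 198 to 257 CPM. Its log2 fold changes were 0.06, 0.12 and 0.06, with edgeR adjusted p of 0.704, 0.437 and 0.808. CHD9, on the plus strand at chr16:53054991-53329150, ranged from 53.3 to 76.5 CPM. Its log2 fold changes were −0.08, 0.00 and 0.08, with edgeR adjusted p of 0.726, 0.996 and 0.804. The 95% intervals of both genes stayed between −0.32 and 0.33 in all comparisons.

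Much of the spread of the paralogs followed the replicate number. In all 3 lines replicate 1 was the lowest sample for CHD2, CHD4, CHD6, CHD7 and CHD8, 5 of the 9 members. Among all genes tested this held for 10.4%. Replicate 3 was the highest sample of all 3 lines for CHD1, CHD2 and CHD9. On average over the lines, replicate 1 of CHD7 lay 0.26 below the line mean on the log2 scale, and CHD2 lay 0.23 below in replicate 1 and 0.25 above in replicate 3. CHD5 followed no such order, with its lowest sample in replicate 1, 3 or 2 of DU145KO, DU145KO+α2 and DU145KO+vector.

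CHD genes are long. The gene lengths behind the RPKM values were 6483 to 11629 bases for the members against a median of 3248 bases for all genes tested, and 14.3% of genes were at least as long as CHD1, the shortest member. Among the genes at least that long, replicate 1 was the lowest in all 3 lines for 23.5%. The RPKM summed over all genes was the highest in replicate 1 of each line, at 398728, 415070 and 411871, against 367331 to 386665 in the other samples. The part of gene length or of RNA quality in the pattern was not tested.

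**Figure D4:**
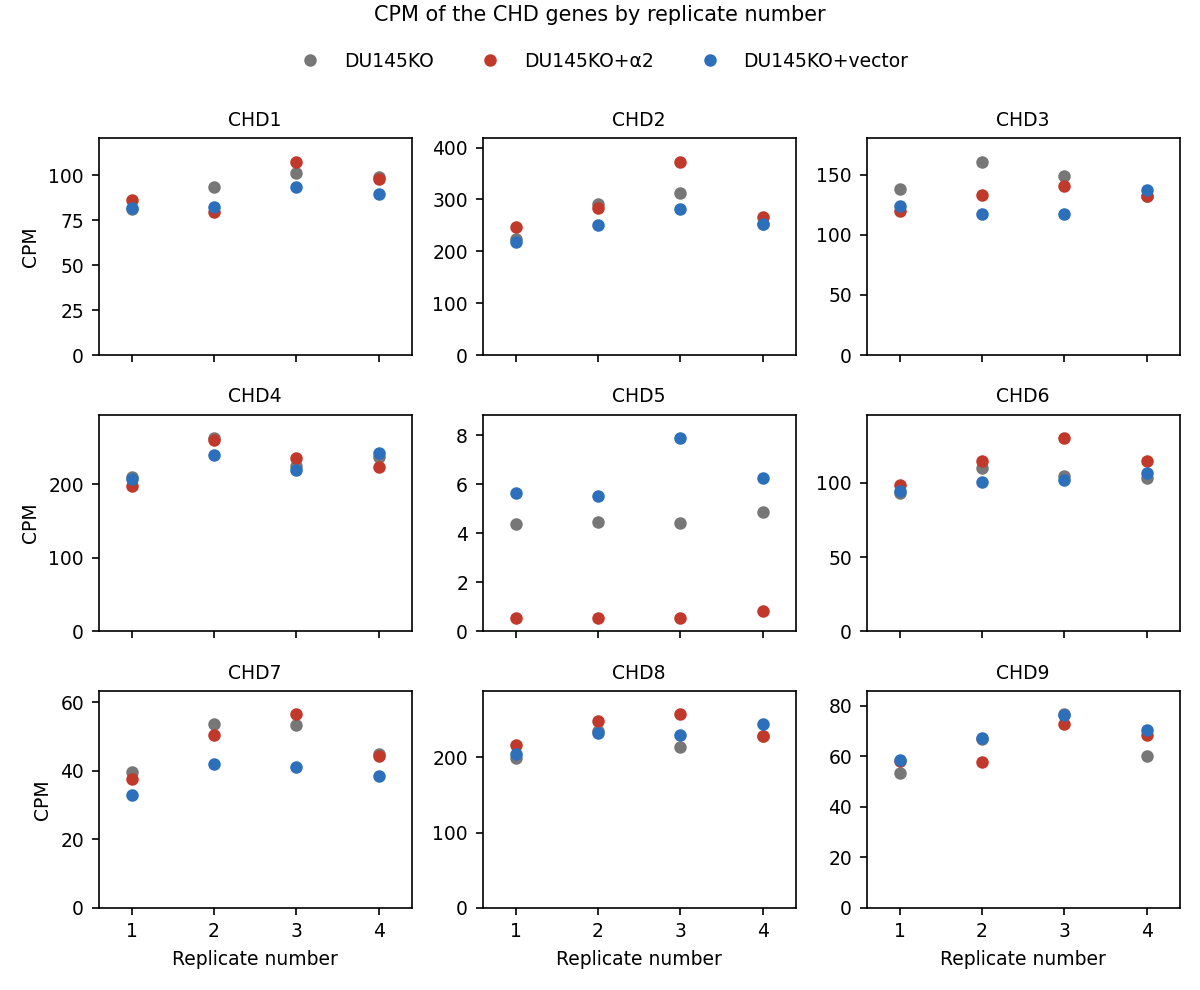
CPM of each member, 1 panel per gene with its own axis from 0, against the replicate number, with 1 point for each sample of the 3 lines. For CHD2, CHD4, CHD6, CHD7 and CHD8 the lowest point of every line is replicate 1, whereas for CHD5 the lines stay apart at every replicate number.

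CHD5 was then compared with its paralogs directly by the log2 ratio of CHD5 to each paralog within a sample, after adding 0.5 to the counts. This ratio does not depend on library scaling. For CHD4 the log2 ratio of counts was −8.49 ± 0.357 in DU145KO+α2, −5.17 ± 0.269 in DU145KO+vector and −5.68 ± 0.134 in DU145KO (mean ± SD, n = 4). The difference between DU145KO+α2 and DU145KO+vector ran from −3.23 for CHD9 to −3.59 for CHD7. Against DU145KO it ran from −2.70 for CHD3 to −2.99 for CHD6. Between DU145KO+vector and DU145KO it ran from 0.38 for CHD9 to 0.77 for CHD7. The lines did not overlap in any of the 24 ratios.

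In an exact permutation test, two-sided, each of the 24 differences had p = 0.0286, the smallest p that 4 samples against 4 allow, and the p adjusted over the 24 tests was the same. A paired version within replicate numbers cannot fall below an exact p of 0.125. All ratios of a sample share its CHD5 count, so the 8 tests of a comparison are not independent of each other, and a p at its floor says only that the lines do not overlap. Between DU145KO+vector and DU145KO as few as 4 of the 8 ratios stayed below 0.05, when either replicate 2 or replicate 3 of DU145KO was left out. Leaving out a sample cannot make separated lines overlap. With 3 samples against 4 there are only 35 splits, and p exceeds 0.05 once another split gives as large a difference. That count therefore shows how coarse the test is and does not bear on the separation of the lines.

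The genes near CHD5 were read next. The nearest tested genes are KCNAB2, a potassium channel subunit at lower coordinates, and RPL22, a ribosomal protein gene at higher coordinates. KCNAB2 had log2 fold changes of −0.26, 0.03 and 0.29, with SE of 0.10 each and edgeR adjusted p of 0.103, 0.895 and 0.147. Its difference from DU145KO+vector and that between the α2 negative lines had the same signs as those of CHD5, at a smaller size. RPL22 had log2 fold changes of 0.01, 0.05 and 0.03, with edgeR adjusted p of 0.946, 0.832 and 0.916. Over the 23 tested genes within 2 Mb of CHD5 the median log2 fold change was 0.02, 0.06 and 0.03, with 1 gene called, as higher, in each comparison of DU145KO+α2 and 0 between the α2 negative lines.

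The 5 genes whose log2(CPM + 1) over the 12 samples was most like that of CHD5, by Pearson's r, were BST1 (0.983), AGTPBP1 (0.966), HDHD3 (0.964), DYSF (0.960) and SMARCA2 (0.956). These are descriptions of genes that share libraries and a division into lines. The r of the paralogs with CHD5 ran from −0.59 for CHD6 to 0.19 for CHD9. BST1, a cell surface enzyme of NAD metabolism, resembled CHD5 also in the size of its difference, with 6.96 ± 0.476 CPM in DU145KO, 10.3 ± 0.211 in DU145KO+vector and 0.724 ± 0.345 in DU145KO+α2 (mean ± SD, n = 4). DYSF, a membrane repair gene, lay at 35.9 ± 4.65 CPM in DU145KO, 40.5 ± 2.17 in DU145KO+vector and 16.6 ± 2.36 in DU145KO+α2 (mean ± SD, n = 4). AGTPBP1, HDHD3 and SMARCA2 lie on chromosome 9 and differed less, with log2 fold changes of −0.48, −0.55 and −0.76 in DU145KO+α2 against DU145KO+vector.

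Other genes were read from 6 lists with 95 genes, of which 93 were tested. The lists held NuRD partners, other remodellers and their subunits, histone methylation enzymes, and genes of the p53 and β-catenin pathways. In DU145KO+α2 against DU145KO+vector 12 of them were called in edgeR (12.9%). The count was 8 (8.6%) in DU145KO+α2 against DU145KO, and 3 (3.23%) in DU145KO+vector against DU145KO. These shares are close to the 11.9%, 8.17% and 2.34% of all genes. With the block the counts were 31, 23 and 8, that is 33.3%, 24.7% and 8.6% of the list genes against 26.5%, 22.3% and 13.4% of all genes.

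Of the 12 NuRD partners, MTA1, a scaffold of the complex, rose in DU145KO+α2 against both other lines, by 0.23 and 0.25 on the log2 scale with edgeR adjusted p of 0.0358 and 0.0279. It measured 151 to 169 CPM in DU145KO+α2 and 126 to 145 CPM in the other lines. In edgeR the other 11 did not pass in either comparison without the block, whereas the DESeq2 Wald test called 2 of the 12 against DU145KO+vector. Further, no NuRD partner passed between the α2 negative lines, where the count was also 0 at an unadjusted p, in the DESeq2 Wald test, in voom with limma and with the block. The medians of the list were 0.08, 0.07 and −0.01. With the block 2 and 3 NuRD partners were higher in the comparisons of DU145KO+α2 and 0 were lower.

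Among 17 other SNF2 type ATPases, SMARCA2, which is BRM of the BAF complex, fell in DU145KO+α2. Its samples lay at 25.0 to 31.6 CPM against 45.7 to 49.5 CPM in DU145KO+vector and 42.1 to 47.5 CPM in DU145KO, with no overlap. The log2 fold changes were −0.76 and −0.67, with edgeR adjusted p of 3.2e-05 and 0.000112. No other ATPase of the list passed without the block, and the medians of the list were −0.05, −0.06 and 0.02. With the block 3 were higher and 4 lower against DU145KO+vector, 2 higher and 1 lower against DU145KO, and 1 was higher between the α2 negative lines. In that last comparison none passed in edgeR without the block, at an unadjusted p, or in DESeq2 or limma.

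Of 22 accessory subunits of the ISWI and BAF remodellers, 4 rose and 1 fell in DU145KO+α2 against DU145KO+vector. PHF10 rose by 0.59, SMARCE1 by 0.28 and SMARCD1 by 0.22 on the log2 scale, whereas BRD7 fell by 0.48, with edgeR adjusted p of 0.000518, 0.0129, 0.0343 and 0.000117. All of those named are BAF or PBAF subunits. Against DU145KO, SMARCD1 rose by 0.25 and BRD7 fell by 0.48, and CECR2, a partner of ISWI, fell by 0.86, with edgeR adjusted p of 0.0253, 0.000146 and 0.0237. In DU145KO+vector against DU145KO, CECR2 also fell by 1.51, with an edgeR adjusted p of 0.0028. It lay at 6.08 to 13.3 CPM in DU145KO, 2.62 to 4.21 in DU145KO+vector and 3.85 to 6.61 in DU145KO+α2. The medians of the list were 0.07, 0.07 and −0.04. With the block 7 were higher and 1 lower, 5 higher and 2 lower, and 0 higher and 2 lower in the 3 comparisons.

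The chromodomains of CHD5 have been linked to methylated lysine 27 of histone H3, and 18 genes of H3K27 and H3K4 methylation were listed. ASH2L, of the H3K4 methyltransferase complexes, rose in DU145KO+α2 by 0.39 against DU145KO+vector and by 0.34 against DU145KO, with edgeR adjusted p of 0.000887 and 0.00324. EED, of the H3K27 methyltransferase PRC2, fell by 0.34, and WDR5, a partner of ASH2L, fell by 0.29 against DU145KO+vector, with edgeR adjusted p of 0.0421 and 0.0232. None of the 18 passed between the α2 negative lines in edgeR without the block, in DESeq2 or in limma, and 1 had an unadjusted p below 0.05. With the block 5 were higher and 3 lower, 1 higher and 1 lower, and 1 higher and 0 lower. The medians of the list were 0.07, 0.05 and −0.02.

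CHD5 is known to act upstream of the CDKN2A locus and p53, and CHD8 to restrain β-catenin. Of 14 genes of CDKN2A and p53, GADD45A, a p53 target, rose in DU145KO+α2 against DU145KO+vector by 0.50 with an edgeR adjusted p of 0.0199, at 112 to 163 CPM against 85.4 to 113 CPM. In the other comparisons 0 passed in edgeR without the block, in DESeq2 and in limma, with 2 genes at an unadjusted p below 0.05 in DU145KO+α2 against DU145KO and 1 in DU145KO+vector against DU145KO. With the block 2 were higher and 2 lower, 2 higher and 1 lower, and 1 higher and 0 lower. The medians of the list were 0.06, 0.06 and −0.02. Of the 10 β-catenin targets tested, ZNRF3 rose in DU145KO+α2 against DU145KO+vector by 0.42 with an edgeR adjusted p of 0.00989. RNF43 fell against DU145KO in DU145KO+α2 by 1.16 and in DU145KO+vector by 1.21, and NKD1 by 0.69 and 0.93, with edgeR adjusted p of 0.000139, 0.000365, 0.0203 and 0.00976. RNF43 and NKD1, feedback inhibitors of Wnt signalling, were thus lower in both transfected lines, at 5.37 to 7.70 CPM for RNF43 against 11.7 to 16.4 in DU145KO. The medians of the list were 0.06, −0.16 and −0.18, and with the block 2 were higher and 0 lower, 1 higher and 4 lower, and 0 higher and 3 lower.

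As CHD5 is best known from neurons, neuronal and neuroendocrine markers were read beside it. CHGA, NCAM1 and RBFOX3 had at most 4 counts in any sample. SYP lay between 0.502 and 2.18 CPM and TUBB3 between 56.7 and 136 CPM, and neither passed the test in any comparison. ENO2 rose in DU145KO+α2 by 0.65 against DU145KO+vector and by 0.59 against DU145KO, with edgeR adjusted p of 0.00867 and 0.0195, opposite in direction to CHD5. The summed level of the 6 markers was 155 to 231 CPM in DU145KO+α2, 110 to 161 CPM in DU145KO+vector and 94.3 to 173 CPM in DU145KO. TUBB3 and ENO2 made up nearly all of that sum, so it says little about the other markers.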

How the data were processed

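RNA of spheroids from 3 lines with 4 samples each was sequenced. The authors made stranded mRNA libraries, sequenced single-end reads, called bases with bcl2fastq 1.8.4, aligned to hg38 with TopHat 2.1.0, and deposited counts of uniquely aligned reads per gene from Subread 1.5.0. The strand setting of the counting is not given in the sources used here. The authors also deposited RPKM values made after TMM normalization, which served here for levels between genes. The line and the replicate number of each sample come from its label.

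The counts were tested in R 4.3.3 with edgeR 4.0.16 (TMM, filterByExpr with a minimum count of 10, robust quasi-likelihood test, all 12 samples in 1 model). P-values were two-sided and adjusted by the Benjamini-Hochberg method over 14732 genes, and an adjusted p below 0.05 was a call. CPM values were scaled by TMM. The study's own test, voom with limma (3.58.1), and the DESeq2 (1.42.0) Wald test were alternatives. The SE is the log2 fold change divided by the square root of F. No replicates of the same line were duplicates, since the chi-square of their counts divided by its degrees of freedom was 7.39 to 25.4. Median depth was 16446500.5 counts, and 5446 genes had no count. The scripts were tested on simulated counts.

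The deviations of same-numbered samples from their line means correlated with r of 0.135 to 0.554 in all 12 pairs. The mean for different numbers was −0.126. Deviations from a line mean cancel out within the line, so a positive r for same numbers makes that mean negative. It is therefore no separate evidence. The replicate numbers come from the labels, which do not say what a number marks. Values with this block stand beside results that it changes.

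Positions are from GENCODE v44 on GRCh38, the build the authors aligned to. Named genes are the 9 members, ITGA2, up to 4 called genes of each list with the largest change, the 5 genes most like CHD5 and its nearest tested neighbours. Members and lists were chosen with earlier results of these data known. Some marker genes are not reported here.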

Additional observations from a re-analysis of the deposited data

Results flagged for a closer look

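For each member in each line, the distance of the most extreme of the 4 samples from the nearest other was set against the range of the line. Of 27 such groups, 1 stood apart, where chance gives 1.35. It was CHD5 in replicate 4 of DU145KO+α2, at 0.827 CPM from 13 counts, against 0.531 to 0.559 CPM in the other samples of the line. The gap was 0.908 of the range of the line, and the sample stayed below all samples of the other lines.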

How the results depend on the processing

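CHD5 was called in both comparisons of DU145KO+α2 under every alternative in which it was tested, with log2 fold changes of −3.52 to −3.23 and −3.03 to −2.80 when samples were left out in turn. Requiring 10 counts or more in each sample removed it, as its lowest count was 9, and left 0 members called in both. Of 510 values of members under alternatives, 482 kept their direction and call, 22 turned direction and 6 passed the test with the replicate block alone. All that turned came from leaving out a sample, for genes near 0. CHD4 ranged from −0.0528 to 0.0793 against DU145KO+vector. Against DU145KO in DU145KO+α2, CHD1 ranged from −0.0847 to 0.0508, CHD2 from −0.0110 to 0.195, CHD4 from −0.0937 to 0.0418, CHD7 from −0.105 to 0.0787 and CHD9 from −0.0636 to 0.0977. Between the α2 negative lines, CHD4 ranged from −0.0825 to 0.0203 and CHD6 from −0.0676 to 0.00415. With the replicate block the members called were 4, 1 and 3, all genes 3911, 3286 and 1980, and list genes 31, 23 and 8, and no member's call was lost. Its paired test of the CHD5 ratios gave 0 of 8 below 0.05 in each comparison and cannot pass. A fold change above 2 left 325, 309 and 123 of all genes, and 0, 1 and 2 of list genes. Between the α2 negative lines the DESeq2 Wald test called 587 genes, against 344 in edgeR. With samples left out, the edgeR count ran from 159 to 526, with 182 and 178 without replicates 1 and 2 of DU145KO, 526 without its replicate 4, and 190, 159 and 181 without replicates 2, 3 and 4 of DU145KO+vector. List genes called ran from 6 to 12 against DU145KO+vector. The count was 6 without replicate 3 of DU145KO+α2 or replicate 2 or 4 of DU145KO+vector, and 7 without replicate 3 of DU145KO+vector. It ran from 4 (without replicate 2 of DU145KO) to 8 against DU145KO. Between the α2 negative lines it ran from 3 to 5 (without replicate 4 of DU145KO). The cause of these changes was not tested. In that last comparison 4 to 7 of the CHD5 ratios stayed below 0.05 in the permutation test, although the lines still did not overlap. With 9 to 13 counts of CHD5 per sample, depth limits its value in DU145KO+α2 more than that of any paralog. The lowest paralog count in that line was 608, for CHD7.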
